A study of Mus musculus with 9 samples.

Results

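Blood-brain barrier (BBB) type endothelial cells are the cells of the brain vessel wall whose transcripts of barrier transporters outnumber those of sprouting vessels. They were picked cell by cell from Drop-seq libraries, in which single cells are captured with barcoded beads in droplets and unique molecular identifiers (UMIs) are counted per gene. Barcodes entered if they showed 200 genes or more and if mitochondrial transcripts made up no more than 30% of their UMIs. It was taken as endothelial with UMIs of at least 2 of 8 vessel genes (Cldn5, Pecam1, Ly6c1, Egfl7, Itm2a, Esam, Flt1, Ctla2a) and of at most 1 of Csf1r, Slc1a2 and Rgs5, which mark myeloid cells, astrocytes and pericytes. It was of BBB type with more summed UMIs of set A (Slco1a4, Slco1c1, Abcb1a, Car4, Gkn3, Mfsd2a) than of set B (Col4a1, Col4a2, Angpt2, Apln, Esm1, Plvap, Lamb1), and of tip type in the opposite case. By this rule 1909 of 15391 kept cells (12.4%) were of BBB type and 360 were of tip type, and 261 endothelial cells had equal sums and belonged to neither, 160 of them without a UMI of either set.

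The cells came from 9 samples, all of athymic nude mice. In 7 of them (P3, P8, P13, T16, T101, T192 and T233) a human glioblastoma (GBM) had grown in the brain of an untreated mouse from implanted patient-derived organoids (patient-derived orthotopic xenografts, PDOXs), so that tumor cells are human and vessels are of the mouse. P3TMZ is a P3 PDOX of a mouse given temozolomide (TMZ), an alkylating drug, and Nu-NB is 1 brain of a nude mouse without tumor. Per the study's methods the hosts were female, tumors were taken at the endpoint of growth and TMZ was given by mouth until shortly before it. Control mice of that experiment received the vehicle, and the labels do not say whether the P3 sample is one of them. Nude mice lack mature T cells, T192 and T233 derive from tumors of 1 patient, and each sample is 1 library, so that p-values measure the spread between PDOX models. FACS was used for Nu-NB and P8, and mouse cells of the remaining samples were obtained by MACS. The FACS-sorted pair also carries older gene symbols, so that effects of sorting and of gene annotation cannot be told apart.

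Brain endothelial cells differ from those of other organs in that they are sealed by tight junctions, carry few vesicles and exchange nutrients through dedicated transporters. Solute carriers bring glucose, amino acids, lactate and thyroid hormone across the wall, and pumps of the ABC family return drugs and other lipophilic compounds to the blood. This state is kept up by Wnt ligands of neighboring cells, which act through Frizzled and LRP receptors, beta-catenin and LEF/TCF factors. Sprouting vessels are led by tip cells, which lay down basement membrane collagens and laminins and express angiopoietin 2 and apelin.

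Depth set the precision of all that follows. BBB-type cells held a median of 407.5 UMIs in Nu-NB and between 490 in T101 and 1070 in P13 among PDOXs. Their summed UMIs were 22918 in Nu-NB, against 141492 to 742440 in the 7 PDOXs. Any pair of files shared at most 11 cell barcodes. All levels are given in CPM, UMIs of a gene scaled to the same sum over the 12952 symbols listed in every file (counts per 1e6).

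BBB-type cells were found in every sample. They numbered 36 in Nu-NB, 140 in P8, 225 in T101, 249 in T192, 132 in T233, 157 in P3, 430 in T16, 418 in P13 and 122 in P3TMZ. Their share of all kept cells was 1.93% in Nu-NB and 5.72% in P8, the FACS-sorted samples, and between 13.1% and 20.2% in the other 6 untreated PDOXs. The part of the sort in this share was not tested.

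Among cells that the rule could assign to BBB or tip type, BBB-type cells were in the majority in every sample. Their share was 97.3% in Nu-NB (36 of 37 cells, exact 95% binomial interval 85.8 to 99.9%) and 87.8% ± 10.6 (SD, n = 7) in PDOXs, a difference of -9.54 percentage points. It was smaller than the SD between PDOXs here but not under every setting, with -14.8 points and an SD of 11.7 in cells of at least 500 genes and -12.7 points and an SD of 9.04 after thinning. It was 99.2% in T233, 97.3% in T192, 93.8% in T101 and 90.3% in P8. P3 with 81.8%, T16 with 82.9% and P13 with 69.1% were lowest, and the interval of P13 (65.2 to 72.8%) did not overlap that of any other sample. After thinning to 500 UMIs P13 no longer stood apart. It was then at 78.1% (74.3 to 81.7%), with T16 at 76.8% (71.8 to 81.3%) and P3 at 79.1% (69.3 to 86.9%). P3, T16 and P13 held 311 of the 360 tip-type cells. The study's text describes these 3 models as the more angiogenic ones, which the sample labels do not give, so no test was made. Since the rule sets this share, it is a description, and 7 samples against 1 cannot give an exact p under 0.125.

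**Figure D1:**
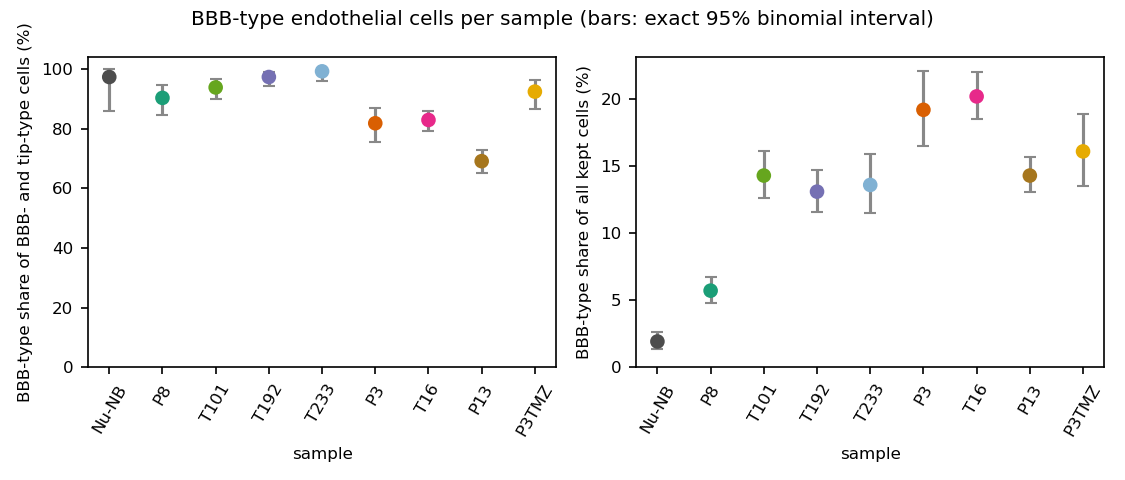
Share of BBB-type cells (y axis, %) in each sample (x axis), left among BBB-type and tip-type cells and right among all kept cells. Points are samples and bars are exact 95% binomial intervals, which cover counting error only. P13 is lowest on the left at 69.1%, and Nu-NB and P8 are lowest on the right at 1.93% and 5.72%. The points are at full depth, and after thinning to 500 UMIs P13 was at 78.1% and T16 at 76.8%.

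A single UMI decided for 234 of the 1909 cells (12.3%), and 82 tip-type cells lay as close on the other side. The median cell held between 4.0 UMIs of set A in T192, P3 and T16 and 9.0 in P13, of 2 to 4 different genes. No UMI of set B was found in 48.1% of BBB-type cells in P13 and 49.7% in P3, and in up to 78.0% in T233.

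The label was checked against its markers, all 6 of which (set A without Mfsd2a, and Cldn5) were detected in BBB-type cells of every sample. Their summed level was 7093 to 13380 CPM in the 7 PDOXs and 12210 CPM in Nu-NB, while the remaining cells of the same samples held 193 to 671 CPM and 1062 CPM. Since these genes chose the cells, the contrast is a description. Slco1c1, which carries thyroid hormone and organic anions, was found in 94.4% of BBB-type cells of Nu-NB and in 70.5% to 88.0% of those of the other samples. Myeloid cells of the same libraries, which should lack it, held a UMI in 2.96% to 18.2% of cells at median depths of 546 to 1749 UMIs, the highest value in P13. Gkn3, a marker of arterial endothelial cells of the brain, was the sparsest at 3.57% of cells in P8 and up to 31.1% in T233.

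**Figure D2:**
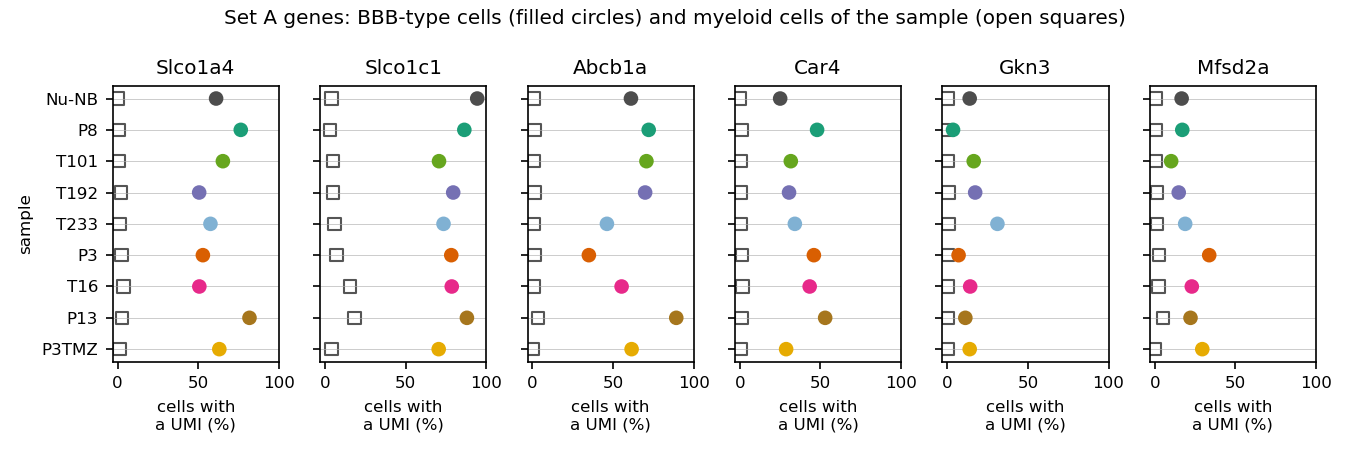
Percent of cells with at least 1 UMI (x axis) of each set A gene in the 9 samples (y axis). Filled circles are BBB-type cells and open squares are myeloid cells of the same sample. Circles lie to the right of the squares for every gene and sample, and Slco1c1 in myeloid cells reaches 18.2% in P13.

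Levels of the chosen genes differed between PDOXs. Slco1c1 stood at 5840 CPM in Nu-NB, 3800 CPM in P8, 2630 CPM in T101, 2340 CPM in P3, 2320 CPM in T192, 2230 CPM in P13, 2120 CPM in T16 and 1040 CPM in T233. Abcb1a, which encodes the P-glycoprotein drug pump, ranged from 472 CPM in P3 and 502 CPM in T233 to 2750 CPM in T101, with 2120 CPM in Nu-NB. Mfsd2a, the carrier of omega-3 lipids that restrains vesicle transport, was high in P3 at 611 CPM and lay between 141 and 311 CPM in the other 6 PDOXs, with 265 CPM in Nu-NB. P3 was thus highest for Mfsd2a and lowest for Abcb1a. Slco1a4, a carrier of bile acids and drugs, had its highest level in T101 at 2470 CPM and its lowest in T233 at 770 CPM. Car4, a carbonic anhydrase on the vessel's inner face, was at 398 CPM in Nu-NB and 473 to 1110 CPM in PDOXs. Gkn3 was highest in T233 at 1480 CPM, against 202 to 1090 CPM in the other untreated PDOXs and 398 CPM in Nu-NB.

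Low levels of the set A genes other than Gkn3 in T233 stood beside transcripts of other cell types. The summed level of 12 myeloid markers in its BBB-type cells was 22060 CPM, against 609 CPM in T16, 1284 CPM in T101, 2827 CPM in P13, 7023 CPM in P8, 7569 CPM in P3, 8348 CPM in T192 and 885 CPM in Nu-NB. Cells with UMIs of 3 or more markers of a single other type made up 26.5% of BBB-type cells of T233 and 68.7% of their UMIs. In the other samples such cells were 6.22% to 35.4% of BBB-type cells, with the highest share in P13, and held 8.31% of BBB-type UMIs in T101 and up to 50.7% in T192 and 50.1% in P13. In tip-type cells they held 60.5% of UMIs in P13 and 56.9% in P3. Astrocyte markers stood at 6767 CPM in Nu-NB and at 218 to 3530 CPM in PDOXs, highest in P13. Oligodendrocyte markers stood at 1813 CPM in Nu-NB and at 18.2 to 148 CPM in PDOXs. Choroid plexus and ependymal markers reached 9012 CPM in P13 and 223 CPM in T101. Erythrocyte genes were at 0 in Nu-NB, T233, P3 and P3TMZ and reached 4764 CPM in P13, and fibroblast and neuron markers stayed at or under 89.8 CPM in every sample. The part of these transcripts in each result was not tested, and the share, the cycling difference and both tests across genes were therefore also computed without cells that held 3 or more markers of another type, an alternative chosen after these levels were seen.

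**Figure D3:**
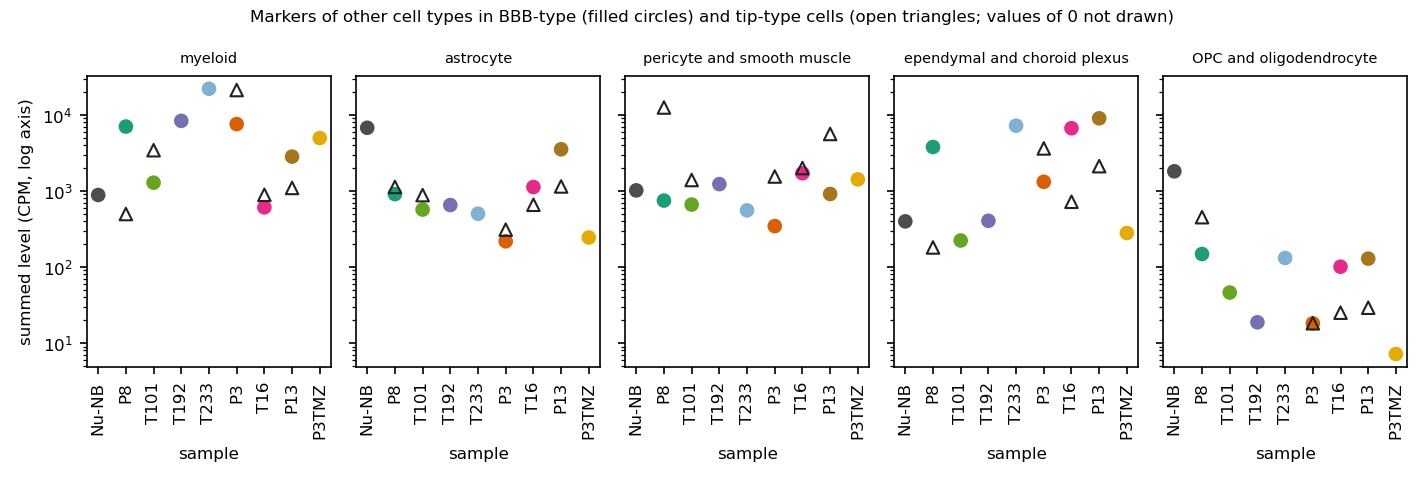
Summed level of the markers of 5 other cell types (y axis, CPM, log axis) per sample (x axis). Filled circles are BBB-type cells and open triangles are tip-type cells of the 5 PDOXs with at least 10 of them. Myeloid markers peak at 22060 CPM in BBB-type cells of T233, and pericyte markers are higher in tip-type than in BBB-type cells in each of the 5 PDOXs.

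BBB-type cells were next compared with tip-type cells of the same tumor, to see which genes outside the rule divide with it. The 5 PDOXs with at least 10 cells of both types entered (P8, T101, P3, T16, P13), and UMIs were summed per sample and type. Higher in BBB-type cells were 7 of 16 genes of the solute carrier list, among them Slc6a6. So were 2 of 6 receptors of transcytosis, among them Tfrc, and 3 of 8 genes of the Wnt pathway and barrier regulation, among them Lef1. Lower were 5 of 19 angiogenic genes, among them the laminins Lama4 and Lamc1 and the nidogen Nid2. At FDR ≤ 0.05 in edgeR's quasi-likelihood test with the sample as a block, 144 of 2997 genes (4.8%) were called, 103 higher (3.44%) and 41 lower (1.37%) in BBB-type cells. Without genes of the rule these were 130 of 2976 (4.37%), 95 higher (3.19%) and 35 lower (1.18%). Of these 130, 105 had the same direction in 5 of 5 PDOXs. Of the 21 genes of the rule that were tested 14 passed as well, which is no result. The test says how other genes divide along a line drawn in the same cells, and it rests on unequal samples: the 144 calls became 31 without P13, 69 without T16 and 84 without T101. Pericyte markers were at 345 to 1708 CPM in BBB-type and 1392 to 12510 CPM in tip-type cells of these PDOXs, and tip-type cells of P13 had a median of 3667 UMIs. In tip-type cells 1 UMI was worth 46.4 CPM in T101 and 45.2 CPM in P8, and 3 UMIs were worth 54.6 CPM in P3. Low tip-type levels of these PDOXs therefore rest on few UMIs.

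Of 18 genes in the solute carrier list, 16 were tested, 7 were higher and 0 lower, with a median log2 fold change of 0.70 against 0.01 over all genes tested. Among these 7, Slc9a3r2 is not itself a carrier. Slc6a6, the taurine transporter, was at 438, 1015, 236, 447 and 465 CPM in BBB-type cells of P8, T101, P3, T16 and P13, and at 90.4, 139, 18.2, 37.6 and 65.6 CPM in tip-type cells. The groups did not overlap, and the log2 fold change was 3.09 ± 0.29 (SE; adjusted p = 2.69e-05). Slc2a1, the glucose transporter GLUT1, was at 498, 554, 714, 326 and 708 CPM against 181, 510, 237, 150 and 175 CPM in the same order. It was higher in 5 of 5 PDOXs although T101 differed little and the groups overlapped (log2 fold change 1.39 ± 0.28, adjusted p = 0.0102).

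Slc39a10, a zinc importer, was at 998 to 1653 CPM in BBB-type and 407 to 846 CPM in tip-type cells (log2 fold change 1.17, adjusted p = 0.0247). Slc16a1, the lactate carrier MCT1, had a mean of 803 ± 290 CPM against 394 ± 286 CPM (SD, n = 5; adjusted p = 0.0275). Slc22a8, the organic anion transporter OAT3, was higher by 1.93 on the log2 scale (adjusted p = 0.00921). Slc9a3r2, a scaffold protein that binds ion exchangers, was higher by 1.16 (adjusted p = 0.0194). Each gene of this list named so far was higher in 5 of 5 PDOXs. Slc6a6 kept its call in all 16 alternatives, while Slc16a1 and Slc39a10 lost it in 7, Slc9a3r2 in 6, Slc2a1 in 4 and Slc22a8 in 3 of 16. Amino acid carriers did not pass: Slc7a5, the large neutral amino acid carrier LAT1, had a log2 fold change of 0.18 (adjusted p = 0.840), its partner Slc3a2 0.33 (adjusted p = 0.597) and Slc38a5, a glutamine carrier, 0.63 (adjusted p = 0.517).

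Among efflux pumps outside the rule, 1 of 3 tested was called. Abcg2, the pump BCRP, was at 633, 731, 563, 672 and 753 CPM in BBB-type cells and 181, 371, 383, 357 and 316 CPM in tip-type cells of P8, T101, P3, T16 and P13. No tip-type value reached the lowest BBB-type value (log2 fold change 1.09 ± 0.25, adjusted p = 0.0195). Of 6 receptors of transcytosis and lipid uptake that were tested, 2 were higher and 0 lower. Tfrc, the transferrin receptor that takes up iron, was at 492, 485, 581, 453 and 242 CPM against 90.4, 46.4, 200, 407 and 41.3 CPM, higher in 5 of 5 PDOXs with the smallest gap in T16 (log2 fold change 1.65, adjusted p = 0.0192). Fcgrt, the Fc receptor that recycles antibodies and albumin, was at 84.6 to 152 CPM against 20.6 to 90.4 CPM (log2 fold change 2.29, adjusted p = 0.00263). Lrp8, a lipoprotein receptor of the reelin pathway, had a log2 fold change of -0.08 (adjusted p = 0.955). Abcg2 and Tfrc lost their calls in 7 of 16 alternatives and Fcgrt in 1 of 15.

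Of 8 junction genes tested, only Jam2, a junctional adhesion molecule, was called, at 145 to 237 CPM in BBB-type and 45.2 to 106 CPM in tip-type cells of the 5 PDOXs, with no overlap (log2 fold change 1.62, adjusted p = 0.00607). The median of the 8 was 0.38. Tjp1, which encodes ZO-1, had a log2 fold change of 0.61 (adjusted p = 0.278) and Cdh5, the VE-cadherin of adherens junctions, of 0.09 (adjusted p = 0.942). Of 6 caveolae genes, 1 was called: Cavin2, listed as Sdpr, which shapes caveolae, was higher in 4 of 5 PDOXs, with 310 against 361 CPM in P8 as the exception (log2 fold change 2.80, adjusted p = 0.00457). Cav1, the coat protein itself, had a log2 fold change of 0.27 (adjusted p = 0.740). These were the 2 positive members, while the other 4 were negative, and the median of the 6 was -0.43. Of the 6, 4 had an unadjusted p under 0.05 in the same test.

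Of 20 genes of the Wnt pathway and regulators of the barrier 8 were tested. All 8 had a positive log2 fold change, with a median of 0.81, and 3 were called. Lef1, a transcription factor bound by beta-catenin, was at 384, 369, 133, 486 and 311 CPM in BBB-type cells of P8, T101, P3, T16 and P13 and at 0, 92.8, 54.6, 263 and 168 CPM in tip-type cells. The level was higher in every pair and lowest in both types of P3 apart from the 0 of P8 (log2 fold change 1.32 ± 0.34, adjusted p = 0.0364). Sox17, a transcription factor of arterial and barrier endothelial cells, was at 202 to 315 CPM against 0 to 182 CPM, with no overlap (log2 fold change 1.55, adjusted p = 0.0137). Lrp6, the Wnt co-receptor, was higher by 1.34 (adjusted p = 0.0468). Foxq1, a forkhead factor of brain endothelial cells, had 0.56 (adjusted p = 0.414) and Fzd6, a Frizzled receptor, 0.02 (adjusted p = 0.994). Without cells with 3 or more markers of another type Lef1 no longer passed (adjusted p = 0.0894). Over the alternatives in which they were tested, Lrp6 lost its call in 9 of 11, Lef1 in 10 of 16 and Sox17 in 6 of 15, with adjusted p up to 0.337, 0.322 and 0.232.

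**Figure D4:**
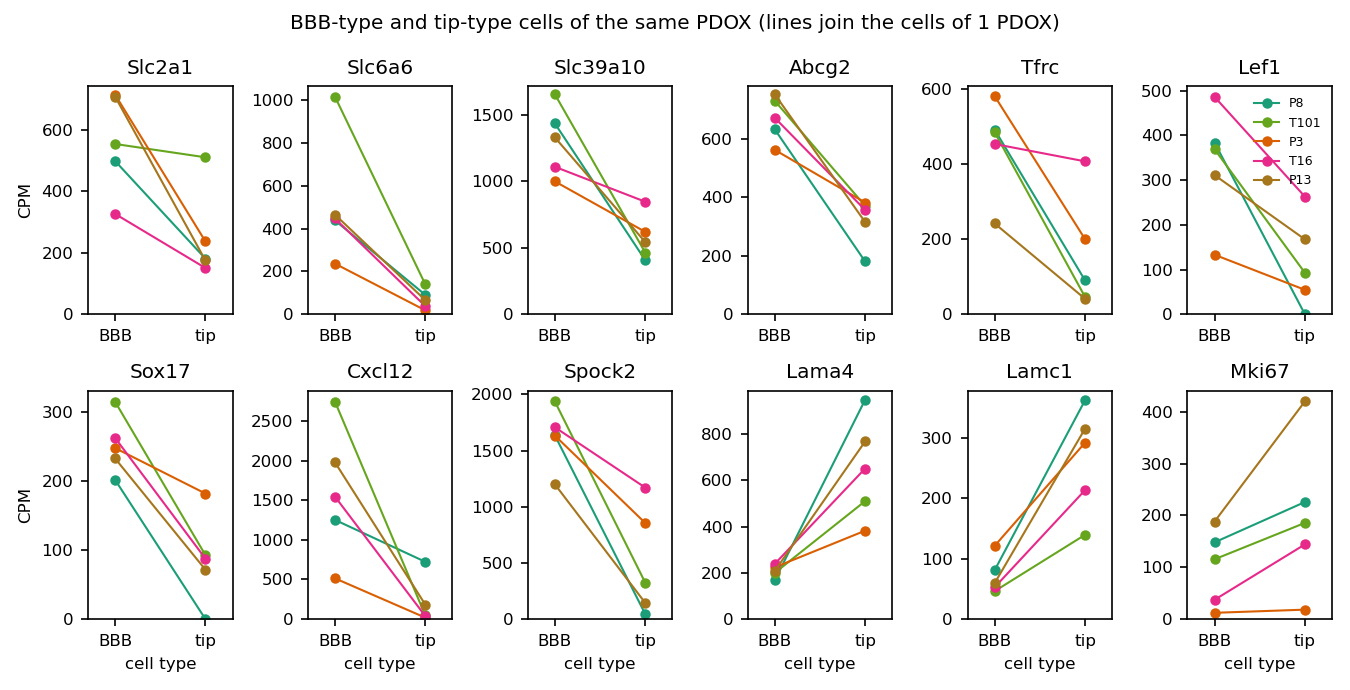
Levels (y axis, CPM) of 12 genes outside the rule in BBB-type and tip-type cells (x axis). Each line joins both types in 1 of 5 PDOXs. Carriers, receptors and Wnt genes fall from BBB to tip type in every pair, and Lama4, Lamc1 and Mki67 rise.

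Genes of the vessel's arterial, capillary and venous parts divided unevenly. Of 7 capillary genes 4 were higher, with a median log2 fold change of 1.27. Cxcl12, a chemokine, was at 1252, 2745, 514, 1546 and 1979 CPM in BBB-type and 723, 46.4, 18.2, 37.6 and 182 CPM in tip-type cells of P8, T101, P3, T16 and P13. The ratio was smallest in P8, whose tip-type level exceeded the BBB-type level of P3 (log2 fold change 3.65 ± 0.53, adjusted p = 8.45e-04). Larger ratios were not ranked, since the tip-type value of T101 is that of 1 UMI. Spock2, a secreted proteoglycan, was at 1200 to 1938 CPM against 45.2 to 1171 CPM (log2 fold change 2.04, adjusted p = 0.0164), and Tfrc and Slc16a1 are the other two. Rgcc, a cell cycle regulator of capillaries, had a log2 fold change of -0.59 (adjusted p = 0.290). Of 12 venous genes 7 were tested and 0 called, among them Vwf, the von Willebrand factor, at -0.05 (adjusted p = 0.984), and 1 had an unadjusted p under 0.05. Only 3 of 14 arterial genes were tested, and Mgp, a calcification inhibitor that smooth muscle also makes, was lower (log2 fold change -2.02, adjusted p = 0.0285), a call lost in 7 of 13 alternatives. Spock2 lost its call in 6 of 16.

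Of 33 angiogenic genes outside the rule 19 were tested, 5 were lower and 1 was higher in BBB-type cells, with a median log2 fold change of -0.61. Lama4, the laminin alpha 4 chain of vessel basement membrane, was at 168, 200, 224, 239 and 208 CPM in BBB-type and 949, 510, 383, 652 and 769 CPM in tip-type cells of P8, T101, P3, T16 and P13. BBB-type levels were alike in the 5 PDOXs, all below any tip-type level (log2 fold change -1.54 ± 0.25, adjusted p = 0.00192). Lamc1, the gamma 1 chain, was at 46.1 to 121 CPM against 139 to 361 CPM (log2 fold change -1.94, adjusted p = 4.94e-04). Nid2, a nidogen that links laminin to collagen IV, had a log2 fold change of -1.76 (adjusted p = 0.00789), and Trp53i11, listed among angiogenic genes, was at 0 to 78.7 CPM against 46.4 to 452 CPM (log2 fold change -2.81, adjusted p = 0.00116). Fscn1, which bundles actin in filopodia, was lower in 4 of 5 PDOXs (log2 fold change -1.55, adjusted p = 0.0143). It lost its call in 6 of 15 alternatives, while Lama4, Lamc1, Nid2 and Trp53i11 kept theirs wherever tested.

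Tek, the TIE2 receptor for angiopoietins, was the member that went the other way, at 151 to 523 CPM against 72.9 to 371 CPM, higher in 5 of 5 PDOXs (log2 fold change 1.32, adjusted p = 0.0108). Its call was lost in 4 of 15 alternatives. The VEGF receptor Kdr had a log2 fold change of -0.42 (adjusted p = 0.426), and the matrix gene Sparc, the most abundant of the list at 2774 to 9439 CPM in BBB-type cells of PDOXs, had -0.49 (adjusted p = 0.386). Col4a1 and Col4a2, which chose the cells, are collagen IV chains of the same basement membrane.

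Beyond the lists, genes with the largest folds were named among those at 50 CPM or more in either type and of the same direction in every PDOX. Degs2, a desaturase of sphingolipid synthesis, was at 189, 185, 109, 149 and 237 CPM in BBB-type cells and 0, 46.4, 0, 0 and 7.29 CPM in tip-type cells of P8, T101, P3, T16 and P13 (log2 fold change 5.05 ± 0.49, adjusted p = 2.69e-05). Sema3c, a secreted semaphorin that guides axons and vessels, was at 224 to 561 CPM against 0 to 136 CPM (log2 fold change 4.76, adjusted p = 6.70e-05). Ndnf, a secreted neurotrophic factor, and Edn3, endothelin 3, were higher by 4.12 and 3.12 (adjusted p = 5.70e-05 and 1.76e-04). Pcp4l1, a small calmodulin-binding protein, was at 321 to 1261 CPM against 0 to 418 CPM (adjusted p = 1.49e-04), and Ptprr, a tyrosine phosphatase, Itih5, a hyaluronan-binding matrix protein, and Cd59a, an inhibitor of the complement attack complex, were also higher.

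Among lower genes chosen in the same way, Aspn and Bgn, proteoglycans of the matrix, had log2 fold changes of -2.52 and -2.09 (adjusted p = 0.00346 and 0.0140), and Cald1, which binds actin in smooth muscle, was at 90.8 to 445 CPM against 200 to 2223 CPM (log2 fold change -1.64, adjusted p = 0.0364). Lgals1, a galectin, and Litaf, a lysosomal membrane protein, fell by 1.62 and 1.61 on the log2 scale (adjusted p = 0.00784 and 0.00381). Calls were lost in 9 of 15 alternatives for Cald1, 5 of 13 for Bgn, 3 of 13 for Lgals1, 1 of 11 for Aspn and 1 of 14 for Litaf. Cald1 moved with pericyte markers. Without cells with 3 or more markers of another type its log2 fold change was -0.68 (adjusted p = 0.478), and Aspn, Bgn, Mgp, Nid2, Lgals1, Litaf and Trp53i11 were too low there to be tested.

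Upstream sequences are shown for 3 of the called genes, a carrier, a capillary gene and a gene of the angiogenic list, to give the letters behind the motif counts. These genes and the motifs were chosen after the values were seen. Each stretch is the 250 bases before the RefSeq start site (GRCm38.p6), written 5′ to 3′ along the gene. The GENCODE M21 annotation starts Slc2a1 further upstream, at position 119108711, within the stretch shown. They are Cxcl12 (chr6:117168285-117168534, plus strand) and Slc2a1 (chr4:119108495-119108744, plus strand), both higher in BBB-type cells, and Trp53i11 (chr2:93187298-93187547, plus strand), lower in them. Capitals mark the letters of CTTTGA (TCF/LEF), AACAAT (SOX) or CCGGAA (ETS) on either strand, 3 motifs that do not overlap each other in these stretches.
Cxcl12: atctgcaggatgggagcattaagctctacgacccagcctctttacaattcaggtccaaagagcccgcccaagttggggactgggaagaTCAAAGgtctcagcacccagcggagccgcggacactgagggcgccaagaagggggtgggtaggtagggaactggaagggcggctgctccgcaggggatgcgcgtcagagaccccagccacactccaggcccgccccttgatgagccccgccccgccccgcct
Slc2a1: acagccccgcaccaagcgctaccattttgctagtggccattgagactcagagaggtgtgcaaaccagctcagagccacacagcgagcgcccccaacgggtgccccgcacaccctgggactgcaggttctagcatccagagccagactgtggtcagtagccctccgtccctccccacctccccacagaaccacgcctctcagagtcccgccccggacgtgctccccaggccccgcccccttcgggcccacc
Trp53i11: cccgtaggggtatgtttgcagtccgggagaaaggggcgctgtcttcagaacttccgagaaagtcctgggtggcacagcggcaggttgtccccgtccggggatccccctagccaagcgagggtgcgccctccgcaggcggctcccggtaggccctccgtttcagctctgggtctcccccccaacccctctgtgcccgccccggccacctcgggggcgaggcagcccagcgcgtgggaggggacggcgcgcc

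A TCF/LEF match lies in the Cxcl12 stretch, and none of the 3 motifs lies in those of Slc2a1 and Trp53i11. Of the 95 genes that were higher 71 had an entry, with 109 start sites, and 8.26% of these held CTTTGA, 3.67% AACAAT and 4.59% CCGGAA. The shares were 15.4%, 11.5% and 15.4% of 26 start sites for the lower genes, and 10.5%, 5.74% and 23.5% over all genes tested. Of all 32851 promoters 13.8% held the first, 9.42% the second and 3952 promoters the third. These are counts of letters in a short window, without a test.

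Of 13 interferon, MHC class I and Ly6 genes tested 11 had a positive log2 fold change and 2 a negative one, with a median of 0.25. The 1 called was Ly6a, a surface protein of brain endothelial cells also known as Sca-1, at 1501, 3799, 1501, 1616 and 2299 CPM in BBB-type and 1265, 2783, 164, 388 and 736 CPM in tip-type cells (log2 fold change 1.52, adjusted p = 0.0172). It was higher in every pair, by least in P8 and T101, and lost its call in 4 of 16 alternatives. Of 4 genes of leukocyte adhesion 0 were called, with 1 at an unadjusted p under 0.05, and Vcam1, an adhesion molecule, had a log2 fold change of 1.48 (adjusted p = 0.214). Of 6 genes of glycolysis and hypoxia Ndrg1 was called, higher in 4 of 5 PDOXs (log2 fold change 4.64, adjusted p = 7.03e-04).

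Proliferation genes were the last group. All 8 tested genes had a negative log2 fold change, with a median of -0.92, and 2 were called. Mki67 was at 148, 115, 12.1, 37.2 and 188 CPM in BBB-type and 226, 186, 18.2, 144 and 420 CPM in tip-type cells of P8, T101, P3, T16 and P13 (log2 fold change -1.09, adjusted p = 0.0425). Pclaf, a partner of PCNA listed as 2810417H13Rik, was lower in 4 of 5 PDOXs (log2 fold change -1.58, adjusted p = 0.0382). Mki67 lost its call in 8 of 13 alternatives, with an adjusted p up to 0.612, and Pclaf in 7 of 12, up to 0.255. Cells were then thinned to 500 UMIs each and called cycling with UMIs of at least 2 of 20 cell cycle genes. This gave 3.81%, 3.67%, 7.69%, 3.14% and 5.04% of BBB-type cells, and 8.33%, 8.33%, 0%, 6.49% and 23.0% of tip-type cells. The 0 is of 16 cells of P3. The mean difference was -4.56 percentage points (two-sided exact permutation test over 5 pairs, p = 0.312, where 0.0625 is the smallest possible), and -1.21 without P13. At full depth it was -16.2 points (exact p = 0.0625), with deeper tip-type than BBB-type cells in 4 of the 5 PDOXs.

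BBB-type cells of tumors were then set against those of the tumor-free brain. At FDR ≤ 0.01 and |log2FC| ≥ 1, 1 of 5912 genes (0.0169%) was called by edgeR, lower in PDOXs, while 719 had an unadjusted p under 0.05. Without cells with 3 or more markers of another type 0 genes were called by edgeR, with 461 at an unadjusted p under 0.05. DESeq2 called 7, all lower in PDOXs. The 3 UMIs that a count of 0 allows are worth 133 CPM in Nu-NB, and 1419 of the tested genes (24.0%) had no UMI there, so that a fall of a gene from under that level was not detectable at this depth.

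The genes next in order of p did not pass. Cd34, a sialomucin of capillary endothelial cells, was without a UMI in Nu-NB and reached 505 ± 98.9 CPM in PDOXs (SD, n = 7), at least 3.81-fold higher if Nu-NB held 3 UMIs (adjusted p = 0.120). Skp1a, of the ubiquitin ligase complex, Txndc17, a thioredoxin-like protein, and Ldha, lactate dehydrogenase, also had no UMI there and were at least 2.69-fold, 1.87-fold and 1.87-fold higher (adjusted p = 0.122, 0.271 and 0.312). Rps26, a ribosomal protein, was at 88.5 CPM against 1432 ± 572 CPM (adjusted p = 0.312). On the lower side, mt-Ts2, a mitochondrial tRNA gene, Cpsf6, a factor of mRNA cleavage, Mir99ahg, a microRNA host transcript, and Igfbp5, a binding protein of insulin-like growth factors, stood at 487 to 752 CPM in Nu-NB and at most 60.6 CPM in any PDOX (adjusted p = 0.120, 0.122, 0.122 and 0.305). Cpsf6 rested on 11 UMIs and Igfbp5 on 17.

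Lists were described by how many members had every PDOX on the same side of Nu-NB, which held for 32.6% of all tested genes above it and 31.0% below it. In the interferon, MHC class I and Ly6 list 9 of 16 members (56.2%) were above Nu-NB in every PDOX and 0 below. Of the 16, 4 had no UMI in Nu-NB, and such genes cannot lie below it. B2m, the light chain of MHC class I, was at 1902 CPM in Nu-NB and 2679 to 8451 CPM in PDOXs, lowest in T16 and highest in T101 (log2 fold change 1.94 ± 0.72, unadjusted p = 0.0200, adjusted p = 0.367). H2-K1 and H2-D1, heavy chains, were at 487 and 1548 CPM in Nu-NB and at medians of 1553 and 2730 CPM in PDOXs (adjusted p = 0.380 and 0.396). Levels in the remaining cells of the libraries were also lowest in Nu-NB, with B2m at 827 CPM against 2269 to 8490 CPM in PDOXs, H2-K1 at 138 CPM against 480 to 2086 CPM and H2-D1 at 249 CPM against 1133 to 2712 CPM. The median of all genes was 0.50 on this scale, and 13 of the 16 lay above it. T233, with the highest level of myeloid markers, was at 6279 CPM of B2m.

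Junction genes lay on the other side. Of 10 tested, 8 were below Nu-NB in every PDOX and 0 above, and 0 were called, with 1 at an unadjusted p under 0.05. Tjp1 was at 619 CPM in Nu-NB and 102 to 351 CPM in PDOXs (log2 fold change -0.84, adjusted p = 0.492), and Cdh5 at 354 CPM and 77.9 to 290 CPM. Both values of Nu-NB rest on few UMIs, 14 and 8, which every PDOX is compared with. Of 14 genes of the Wnt pathway and barrier regulators 7 were below Nu-NB in every PDOX and 2 above. Fzd6 stood at 398 CPM in Nu-NB and 53.6 to 254 CPM in PDOXs, and Lef1 at 575 CPM and 107 to 486 CPM. Of 16 genes of the solute carrier list 5 were above and 4 below. Slc38a5 was at 133 CPM in Nu-NB and 211 to 986 CPM in PDOXs, highest in P3 (adjusted p = 0.412), and Slc2a1 at 398 CPM lay within the PDOX range of 326 to 714 CPM.

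Angiogenic genes outside the rule had 12 of 25 members above Nu-NB in every PDOX and 6 below, and 12 had no UMI in Nu-NB. Sparc was at 1017 CPM in Nu-NB and 2774, 3196, 3923, 4759, 4791, 5968 and 9439 CPM in P8, T233, P13, T192, T101, T16 and P3. All PDOXs were higher, with P3 and T16 on top (log2 fold change 2.71 ± 0.83, unadjusted p = 0.00729, adjusted p = 0.312). Igfbp7, a matrix protein of tumor vessels, was at 1194 CPM against 1452 to 5706 CPM, again highest in P3 (adjusted p = 0.387). Venous genes had 6 of 10 members above and genes of leukocyte adhesion 4 of 8, where 5 and 6 members had no UMI in Nu-NB. Caveolae had 3 of 7 above, with 1 member without a UMI in Nu-NB, and arterial genes had 7 of 12 members below. Glycolysis and hypoxia had 4 of 10 above and 3 below, and 3 had no UMI in Nu-NB. Of the lists, cell cycle had 10 of 13 members without a UMI in Nu-NB. No cycling cell was found among 14 BBB-type cells of Nu-NB that could be thinned, and the share was 1.22% to 7.69% in PDOXs. Nu-NB is 1 library of 1 mouse, so that the tumor, the mouse and the library cannot be told apart. The part of the sort in these counts was not tested.

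Among PDOXs, levels of some genes in BBB-type cells differed by model. Rgcc was at 992 CPM in P3 and 677 CPM in T16 and at 117 to 277 CPM in the other 5. Lamb1 and Apln, genes of set B, were at 109 and 145 CPM in P3 and 125 and 136 CPM in T16, and at most 46.3 and 78.2 CPM elsewhere, both in P13. Slc7a5 was at 496 CPM in P3 and at most 171 CPM in the other 6. Vcam1 was at 784 CPM in T101 and at most 236 CPM elsewhere. These genes were picked after their values were seen, and no test was made.

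P3 and P3TMZ are 1 sample each, with 157 and 122 BBB-type cells, and values are given with exact 95% Poisson intervals, which cover counting error only. Of 2914 genes with at least 20 UMIs in both together, 177 (6.07%) were at least 2-fold higher and 237 (8.13%) at least 2-fold lower in P3TMZ. Tip-type cells numbered 35 in P3 and 10 in P3TMZ, and BBB-type cells made up 81.8% (75.6 to 87.0%) and 92.4% (86.5 to 96.3%) of both types. Carriers called above were close in both samples: Slc2a1 was at 714 and 753 CPM, Slc16a1 at 1222 and 1220 CPM and Abcg2 at 563 and 524 CPM, while Slc6a6 was at 236 and 517 CPM. Among genes of the rule, Abcb1a was at 472 CPM (373 to 589) in P3 and 1334 CPM (1149 to 1540) in P3TMZ and Car4 at 1113 and 509 CPM.

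Among amino acid carriers, Slc38a5 was at 986 CPM (841 to 1150) in P3 and 1105 CPM (937 to 1294) in P3TMZ, with overlapping intervals. Slc7a1, the arginine and lysine carrier, was at 672 CPM (553 to 809) in P3 and 251 CPM (175 to 349) in P3TMZ, and Slc38a2, which takes up neutral amino acids, at 393 and 93.3 CPM. Lrp8 was at 278 and 64.6 CPM, Nid1, a nidogen, at 351 and 122 CPM and Lama4 at 224 and 64.6 CPM. Higher were Lrg1, a secreted glycoprotein of venous endothelial cells, at 72.6 CPM (37.5 to 127) and 595 CPM (474 to 738), and Vwf at 72.6 and 194 CPM. Proliferation values differed in direction. Mki67 had 2 UMIs in P3 and 18 in P3TMZ and Pclaf had 11 and 2, while 7.69% and 1.20% of thinned BBB-type cells were called cycling.

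The study names 8 genes in endothelial cells from its own TMZ comparison, so that their direction is not independent evidence. Ly6c1, a gene of the rule, was at 2.08-fold. Of the other 7, Ly6a (2.14-fold) and Timp3 (2.08-fold), a protease inhibitor, were at least 2-fold higher and Ctsd, a lysosomal protease, was lower at 0.467-fold. H2-D1 was at 1.86-fold, Cxcl12 at 1.80-fold, Ly6e, a surface protein, at 1.48-fold and Ctss, a protease of myeloid cells, at 0.604-fold. Markers of other cells moved as well. The summed myeloid markers were at 7569 CPM in P3 and 4957 CPM in P3TMZ, with Tyrobp at 956 and 323 CPM, and pericyte markers at 345 and 1420 CPM, with Rgs5 at 248 and 933 CPM. Rpl26 and Rpl35a, ribosomal proteins, were at 0.0220-fold and 0.104-fold. The part of these markers and genes in the other differences was not tested, and the drug, the mouse and the library cannot be told apart.

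**Figure D5:**
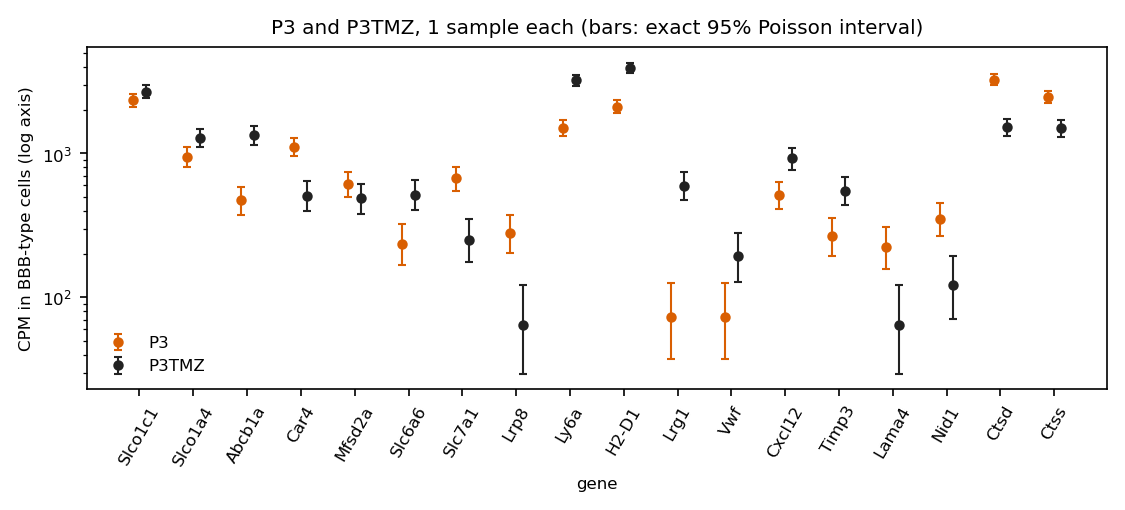
Levels in BBB-type cells (y axis, CPM, log axis) of 18 genes (x axis) in P3 (orange) and P3TMZ (black), 1 sample each, with exact 95% Poisson intervals of counting error. Lrg1 and Abcb1a are higher and Slc7a1, Lrp8 and Lama4 lower in P3TMZ, and the intervals of Slco1c1 overlap.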

How the data were processed

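To separate species, the authors mapped reads against both genomes (STAR, mm10, and bcl2fastq 2.0 in the submitters' processing notes) and deposited raw UMI counts per gene and barcode, without normalization. The counts were checked to be whole numbers. The barcode filters follow the study's methods, and 592 older symbols were replaced through RefSeq synonyms. Doublets were not removed, except in 1 alternative (scanpy 1.11.5, scrublet). UMIs were summed per sample and type with at least 10 cells and tested by edgeR 4.0.16 (quasi-likelihood, TMM, filterByExpr), with DESeq2 1.42.0 as an alternative, in R 4.3.3, and by exact permutation in scipy 1.17.1. The fits were tested on simulated counts with a mean per gene shared by all samples, apart from set differences between groups. That simulation does not cover differences between PDOXs or transcripts of other cell types. Both types come from the same mouse, which pairs them, and the sample is a block. Genes of the rule were fitted but read as description. Named genes are up to 6 per list, called ones first and then the most abundant, and outside lists up to 10 called per direction by fold, or 5 by p. Some carriers, and genes named for differences among PDOXs, were picked beyond this rule. Markers of a list were summed. Some called genes are counted but not reported here by name. Members and lists were chosen with earlier results of these data known. One alternative, without cells with 3 or more markers of another type, was chosen after seeing the data.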

Additional observations from a re-analysis of the deposited data

Results flagged for a closer look

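In BBB-type cells of the 7 PDOXs, 60 genes and shares were searched for a sample that stood far from the other 6 (Dixon's test, critical value 0.568), and 3 were found, where chance gives about 1 in 20. Mfsd2a was at 611 CPM in P3, Slc9a3r2 at 546 CPM in T101 and Aspn at 81.0 CPM in T16. P3 and T16 are MACS-sorted samples with 157 and 430 BBB-type cells.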

How the results depend on the processing

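The 144 genes called between BBB-type and tip-type cells, genes of the rule included, became 59 without the replicate block, 75 with cells of at least 500 genes, 72 with cells lacking UMIs of Csf1r, Slc1a2 and Rgs5, 70 after thinning, where 701 genes were tested, and 321 without a filter on low counts. With cells of at least 500 genes or lacking those UMIs, and with a margin of 2 UMIs (145 calls), T101 also fell out for too few tip-type cells, and P8 after thinning, so that these counts do not reflect 1 choice alone. Leaving out 1 PDOX gave 31 (P13) to 154 (P3) calls. DESeq2 gave 120, and without cells with 3 or more markers of another type there were 138, of which 102 were shared. Of the 41 named genes 14 kept their call under every alternative in which they were tested and 27 lost it under at least 1, with 26 lost without P13, and none changed direction. Against Nu-NB, 7 genes were called by DESeq2, 0 with a margin of 2 UMIs, with cells lacking Csf1r, Slc1a2 and Rgs5, after thinning, or without cells with 3 or more markers of another type, and 1 to 2 when 1 PDOX was left out (2 without P8 or P13). Cells of at least 500 genes gave no value there, since Nu-NB keeps 9. The share of BBB-type cells moved between -14.8 and -6.43 points over all alternatives, and the cycling difference between -16.2 and -1.21 points. With T192 and T233 as 1 sample, too few tip-type cells were left for that PDOX to enter the paired test.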
